A study of Mus musculus with 5 samples.

Results

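The 38 genes described here act in cell division. They were chosen by name out of 30099 gene symbols listed over the 5 libraries, and all 38 were listed in each library. By the phase in which they act, 24 were mitotic members, 11 were S-phase members, and 3 belonged to neither list: the cyclins Ccne1 and Ccne2, which act at the passage from G1 to S, and Stmn1, which encodes a protein that destabilises microtubules. Levels were read in stromal cells picked by marker genes, then in the other cell types that the libraries held.

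The study sequenced single cells of femur marrow that were sorted for tdTomato. All mice carried Lepr-cre and the R26R-tdTomato reporter, so that cells with past or present Cre activity, chiefly stromal cells with the leptin receptor, were marked. Marrow ablation, the injury used, empties the marrow cavity, where bone forms for a time before marrow returns. Control mice were uninjured at 15 weeks. Naive mice were also 15 weeks old and had 1 ablation, at 13 weeks, while exhausted mice of 15 weeks had ablations at 9 and 13 weeks. Aged mice were uninjured at 18 months, and aged-injury mice of 18 months were taken 1 week after an ablation. Naive and exhausted cells were thus collected 2 weeks after the last ablation and aged-injury cells after 1 week, so that age and time after injury cannot be told apart between them. Each group was 1 library with no replicate and no stated number of animals. The spread between mice is therefore unknown and no p-value is given. Each 95% interval covers counting error only, and not the choice of cells or animals.

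A cell that divides first copies its DNA in S phase and then shares the copies out in mitosis. The S-phase genes here encode parts of the copying machinery: the MCM helicase, the sliding clamp PCNA, and the enzymes that supply nucleotides (Tyms, Rrm1, Rrm2). The mitotic genes encode the kinase CDK1 with its cyclins, the proteins that condense and hold chromosomes, the spindle motors, and the checkpoint that waits for every chromosome to attach. S-phase genes are known as targets of E2F factors, and many mitotic genes as targets of complexes that bind a short promoter element, the cell cycle genes homology region or CHR, beside CCAAT boxes. Stromal cells with the leptin receptor are known to divide rarely in adult marrow and to divide after injury.

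The promoters of both lists carry these letters, and 4 of them are shown as examples: Cdk1 and Top2a from the mitotic list, and Mcm6 and Pcna from the S-phase list. Top2a (CHR without an E2F site) and Mcm6 (E2F sites without a CHR) show how the lists differ. Cdk1 holds both kinds and Pcna neither. All 4 were chosen after their levels had been seen. Each sequence is the 250 bases before the annotated start in RefSeq on GRCm38.p6, an older build than the GRCm39 named for the files, and is read 5′ to 3′ on the minus strand. Capitals mark the CHR (TTTGAA or TTCGAA), the CCAAT box (CCAAT) and the E2F site (TTTCCCGC, TTTGGCGC or TTTCGCGC), each searched on both strands, so that ATTGG is a CCAAT box on the other strand. Neighbouring or overlapping matches run together, as in the first E2F match of Mcm6. The windows lie at chr10:69352913-69353162, chr11:99024190-99024439, chr1:128359706-128359955 and chr2:132253181-132253430, in the order shown.
Cdk1: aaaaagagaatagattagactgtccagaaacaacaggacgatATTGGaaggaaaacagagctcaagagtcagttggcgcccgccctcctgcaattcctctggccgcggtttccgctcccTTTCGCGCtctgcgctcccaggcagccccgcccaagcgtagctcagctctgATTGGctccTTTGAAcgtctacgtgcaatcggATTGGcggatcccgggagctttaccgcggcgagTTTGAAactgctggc
Top2a: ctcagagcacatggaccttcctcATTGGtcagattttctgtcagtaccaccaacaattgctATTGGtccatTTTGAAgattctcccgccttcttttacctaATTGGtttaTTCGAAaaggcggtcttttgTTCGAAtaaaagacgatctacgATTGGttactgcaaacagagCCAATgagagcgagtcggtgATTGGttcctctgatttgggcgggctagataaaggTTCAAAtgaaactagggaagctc
Mcm6: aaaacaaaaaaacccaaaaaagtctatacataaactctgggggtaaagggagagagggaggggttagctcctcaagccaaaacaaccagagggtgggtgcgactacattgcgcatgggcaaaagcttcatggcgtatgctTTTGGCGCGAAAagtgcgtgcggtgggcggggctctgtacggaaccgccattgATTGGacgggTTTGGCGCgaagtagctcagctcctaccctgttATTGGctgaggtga
Pcna: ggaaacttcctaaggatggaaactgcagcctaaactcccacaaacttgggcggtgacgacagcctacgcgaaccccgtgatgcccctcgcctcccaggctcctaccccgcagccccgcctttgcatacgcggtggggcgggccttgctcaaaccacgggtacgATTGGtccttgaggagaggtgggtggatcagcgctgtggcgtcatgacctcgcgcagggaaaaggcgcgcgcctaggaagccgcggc

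Cdk1 held 2 CHR, 3 CCAAT boxes and 1 E2F site, Top2a 4 CHR and 6 CCAAT boxes, Mcm6 3 E2F matches, of which 2 overlap, and 2 CCAAT boxes, and Pcna a single CCAAT box. A RefSeq window of 300 bases, from 250 before to 50 after the start, was present for 30 of the 38 members, and any window of a gene counted. The windows of Ccna2, Aurkb, Kif20a, Tpx2, Mcm4, Gins2, Ccne2 and Stmn1 were not used here. The CHR letters stood in 16 of 20 mitotic members (80.0%), in 2 of 9 S-phase members (22.2%) and in 21.7% of 27025 genes. The E2F letters stood in 1 of 20 mitotic members (5.0%), in 4 of 9 S-phase members (44.4%) and in 2.12% of all genes. Both lists were rich in CCAAT boxes, with 90.0% and 88.9% of members against 41.1% of all genes. The S-phase members with E2F letters were Mcm3, Mcm5, Mcm6 and Mcm7, a group that holds genes whose levels differed after injury and genes whose levels stayed flat. A match is a run of letters and not a shown binding site.

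The libraries held 7480 to 20867 cells, of which 5242 to 19497 had at least 500 genes, at least 1000 unique molecular identifiers (UMIs, tags that count each captured mRNA once) and a mitochondrial share under 25%. Kept cells had medians of 6671 to 9512 UMIs. A cell counted as stromal when UMIs were found for at least 40% of the markers of a stromal class, and when that share exceeded that of the endothelial and blood classes by at least 20 points. This gave 7140, 3589, 2852, 6693 and 17256 stromal cells, the libraries being given here and throughout in the order control, then naive, then exhausted, then aged, then aged-injury. Most of them were reticular cells, the class of Lepr, Cxcl12 and Adipoq, which had UMIs of 100% of the reticular markers at the median. Reticular markers were so widely shared that none led the class by fold. The osteoblast lineage class took cells with at least 60% of its markers, and 56.6% of its cells lay within 1 marker of that limit, so it is a range and not a sharp type. Despite the sort, blood cells made up 16.5%, 20.6%, 45.6%, 7.61% and 1.01% of kept cells. Cells with markers of more than 1 side, 1.65% to 4.07% of kept cells, were left out as possible doublets, and no doublet caller was used. In all, 21 cell barcodes were shared between pairs of libraries, at most 5 in a pair.

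Summed over the 24 mitotic members, stromal cells held 68.3, 156, 111, 39.4 and 319 CPM (UMIs of the gene or list per 1000000 UMIs of the cells). Aged stood lowest and aged-injury highest of the 5 libraries, and naive and exhausted stood above control. Summed over the 11 S-phase members, the same cells held 208, 195, 214, 187 and 271 CPM, a far narrower range. There were thus 0.328, 0.799, 0.517, 0.211 and 1.18 mitotic UMIs for each S-phase UMI. Erythroid cells, a class that divides as it matures, held 2.76 to 3.56 mitotic UMIs per S-phase UMI in the 5 libraries. UMI counts are taken at the ends of transcripts and are compared here for 1 gene across libraries, not between genes.

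Blood RNA was present in the stromal cells and may touch the levels here, since dividing blood cells are rich in these transcripts. Its part was not tested. Haemoglobin stood at 5181, 2635, 4570, 2171 and 497 CPM in stromal cells. That was 2.19%, 0.930%, 2.03%, 0.711% and 0.327% of its level in erythroid cells. Stromal mitotic sums were 0.459%, 0.947%, 0.742%, 0.236% and 2.31% of the erythroid sums, so haemoglobin is no direct scale for them. The list sums, the counts of members and the shares of cells in stroma are therefore also given for blood-poor stroma, a set chosen after the data had been seen: the 6302, 3355, 2572, 6342 and 16600 stromal cells with at most 1 UMI of each of 5 blood marker lists. In blood-poor stroma the mitotic sum was 48.8, 129, 92.4, 29.9 and 313 CPM and the S-phase sum was 205, 183, 204, 184 and 271 CPM. The order of the 5 libraries was the same for the mitotic members, and control lost the largest share of its level, from 68.3 to 48.8 CPM. In bulk sums such as these, fewer dividing cells and less RNA per dividing cell cannot be told apart.

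**Figure D1:**
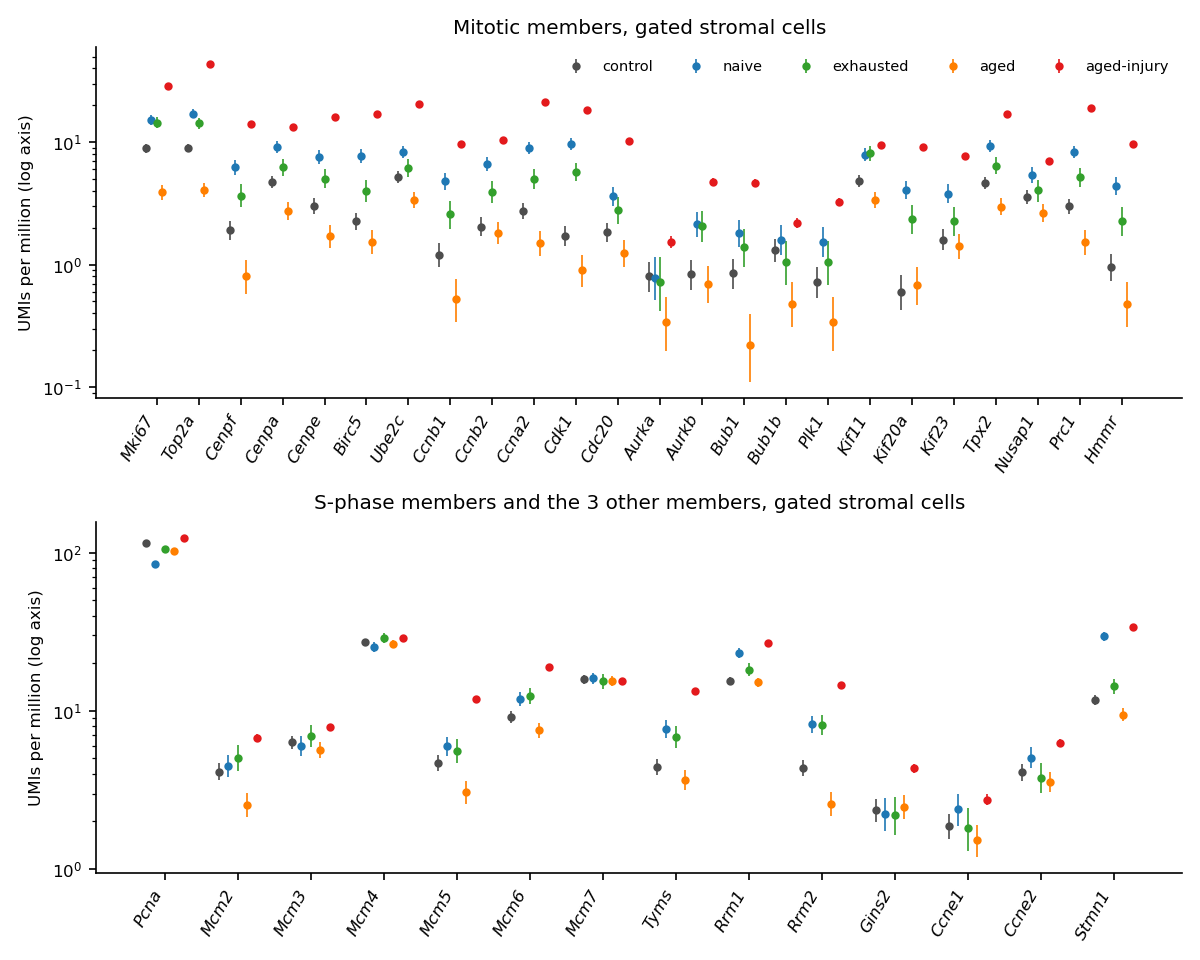
Level of each member in the gated stromal cells of each library, in CPM on a log axis, with mitotic members above and the S-phase and other members below. Points are 1 library each and bars are 95% Poisson intervals. Aged-injury is highest and aged lowest for most mitotic members, while Pcna, Mcm4 and Mcm7 stay close together.

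CDK1 and its cyclins drive entry into mitosis. Cdk1 stood at 1.71, 9.65, 5.72, 0.900 and 18.3 CPM in stromal cells. Its naive level was 5.65 times that of control (95% interval 4.54 to 7.08), its exhausted level 3.35 times (2.59 to 4.34), and its aged-injury level 20.3 times that of aged (15.2 to 27.9). The intervals of the 5 levels did not overlap, and the order of the libraries was the same in blood-poor stroma. Ccnb1, the cyclin B that accompanies CDK1 into mitosis, stood at 1.20, 4.8, 2.57, 0.520 and 9.58 CPM. Its partner cyclin Ccnb2 stood at 2.05, 6.64, 3.91, 1.82 and 10.5 CPM. Ccna2, the cyclin A that acts from S phase to mitosis, stood at 2.74, 8.96, 5.01, 1.50 and 21.3 CPM. These 3 cyclins showed the order of Cdk1, with aged-injury above naive, naive above exhausted, and control above aged, although for Ccnb2 the interval of aged against control took in 1. In blood-poor stroma Ccnb1 stood at 1.18, 4.08, 2.19, 0.409 and 9.32 CPM and Ccna2 at 1.99, 6.78, 4.08, 1.14 and 21.0 CPM, in the same order.

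The broad division markers had smaller ratios in the young libraries. Mki67, which encodes the Ki-67 protein that coats mitotic chromosomes, stood at 8.91, 15.1, 14.4, 3.92 and 29.0 CPM. Top2a, the topoisomerase that untangles sister DNA, stood at 8.97, 17.0, 14.3, 4.08 and 43.5 CPM. Naive exceeded control by 1.70 times (1.50 to 1.92) for Mki67 and 1.90 times (1.69 to 2.14) for Top2a, both below the 2-fold line that Cdk1 passed. In blood-poor stroma Mki67 stood at 5.08, 12.2, 11.6, 2.50 and 27.2 CPM, with naive 2.40 times control (2.05 to 2.82), past that line.

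Chromosome and spindle genes followed. Birc5 and Aurkb encode parts of the chromosomal passenger complex, which corrects faulty attachments. Birc5 stood at 2.26, 7.72, 4.0, 1.54 and 17.0 CPM, and Aurkb, which was scarce, at 0.831, 2.14, 2.06, 0.70 and 4.75 CPM. The kinetochore genes Cenpf and Cenpe stood at 14.1 and 16.2 CPM in aged-injury against 0.800 and 1.70 CPM in aged. Cenpa, the histone variant that marks centromeres, differed less, with 4.76, 9.20, 6.23, 2.76 and 13.3 CPM.

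Among genes of the spindle and of the final split of the cell, Hmmr stood at 0.954, 4.40, 2.27, 0.480 and 9.74 CPM. Kif20a, a kinesin of the cleavage furrow, stood at 0.60, 4.10, 2.36, 0.680 and 9.08 CPM and had the largest naive against control ratio of all 38 members, 6.83 (4.76 to 10.02). Prc1, which bundles microtubules between the separating chromosomes, stood at 3.0, 8.32, 5.18, 1.52 and 19.0 CPM. At the other end, Kif11, the motor that pushes spindle poles apart, spanned 3.40 to 9.42 CPM and Nusap1 spanned 2.64 to 7.04 CPM, the 2 smallest ratios of aged-injury against aged in the mitotic list at 2.77 and 2.67. Tpx2 and Kif23 lay between, at 2.98 to 16.9 CPM and 1.42 to 7.76 CPM.

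Ube2c and Cdc20, which help the anaphase-promoting complex destroy cyclin B, stood at 5.19, 8.32, 6.14, 3.38 and 20.7 CPM and at 1.83, 3.62, 2.78, 1.24 and 10.2 CPM. Aurka, Bub1, Bub1b and Plk1, kinases of the spindle and its checkpoint, did not reach 5 CPM in any library. Aurka had a naive against control ratio of 0.980 (0.587 to 1.60), the only mitotic member below 1 in that comparison. Bub1b had a ratio of 1.22 (0.850 to 1.74). Neither differed between naive and control beyond counting error, whereas both were higher in aged-injury than in aged, by 4.48 and 4.56 times.

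The S-phase members did not move as 1 block. Rrm2, the regulated subunit of ribonucleotide reductase, stood at 4.36, 8.23, 8.16, 2.58 and 14.6 CPM. Tyms, which makes thymidylate, stood at 4.42, 7.69, 6.86, 3.68 and 13.4 CPM. Both showed the order seen for mitotic members, with naive and exhausted above control and aged-injury above all others. Naive exceeded control by 1.89 times (1.60 to 2.24) for Rrm2 and 1.74 times (1.47 to 2.07) for Tyms, and aged-injury exceeded aged by 5.66 and 3.63 times. Rrm1, the other subunit of that reductase, stood at 15.4, 23.1, 18.2, 15.1 and 26.7 CPM, a smaller spread of the same kind. In blood-poor stroma Rrm2 stood at 3.79, 6.31, 6.57, 1.92 and 14.4 CPM and Tyms at 4.17, 7.46, 6.82, 3.6 and 13.2 CPM.

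The MCM helicase genes split, although their proteins form 1 ring. Mcm5 stood at 4.68, 5.97, 5.60, 3.06 and 11.9 CPM, Mcm2 at 4.13, 4.49, 5.05, 2.56 and 6.76 CPM, and Mcm6 at 9.16, 11.9, 12.4, 7.52 and 18.9 CPM. For these 3, aged-injury exceeded aged by 3.88, 2.64 and 2.52 times. Mcm7 stood at 15.8, 16.0, 15.3, 15.4 and 15.3 CPM, and its aged-injury against aged ratio was 0.997 (0.921 to 1.08). Mcm4 lay between 25.3 and 28.9 CPM and Mcm3 between 5.68 and 7.90 CPM. Levels of Mcm3, Mcm4 and Mcm7 thus spanned less than 1.5-fold over the 5 libraries. The Mcm5 ratio between naive and control, 1.28 times (1.06 to 1.53), was 1.02 times (0.817 to 1.27) in blood-poor stroma and is not read as a difference.

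Pcna, the clamp that holds polymerase on DNA and also serves in repair, had the most UMIs of the S-phase members, with 114, 84.4, 105, 102 and 123 CPM. It was lower in naive than in control, at 0.739 times (0.707 to 0.772), and higher in aged-injury than in aged, at 1.20 times (1.16 to 1.24). In blood-poor stroma the levels were 115, 80.2, 99.9, 101 and 123 CPM, with the same directions. Sums over the S-phase list rest in large part on Pcna, which gave 84.4 of 195 CPM in naive and 123 of 271 CPM in aged-injury. Gins2, of the complex that activates the helicase, stood at 2.36, 2.23, 2.19, 2.48 and 4.32 CPM with the highest level in aged-injury. Its aged-injury against aged ratio, 1.74, was 1.13 (0.911 to 1.42) without the 5% of cells with most UMIs, where it was not detectable.

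Of the remaining members, Ccne1 stood at 1.86, 2.38, 1.81, 1.52 and 2.75 CPM and Ccne2 at 4.09, 5.07, 3.79, 3.56 and 6.27 CPM. Naive held 1.28 times the Ccne1 of control, with an interval (0.951 to 1.71) that took in 1, and 1.24 times the Ccne2 (1.01 to 1.51). Scaled by the trimmed mean of M values, the Ccne2 ratio was 1.09 (0.895 to 1.33), so it is not read as a difference. Stmn1 stood at 11.7, 29.6, 14.3, 9.46 and 33.7 CPM. Naive held 2.52 times the Stmn1 of control (2.29 to 2.78), and exhausted 0.482 times that of naive (0.425 to 0.546), the lowest exhausted against naive ratio of the 38 members. Naive and aged-injury were the high libraries for Stmn1, and exhausted stood close to control. In blood-poor stroma Stmn1 stood at 10.9, 26.4, 11.9, 8.96 and 33.1 CPM.

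A member was counted as at least 2-fold different when its ratio reached 2 and its interval left out 1. The background is the same count over all genes with at least 5 CPM in either library. A scarce member passes that limit only through its higher library, so the counts to read are those over all members. Their background is taken over genes with at least 0.5 CPM in either library, a limit chosen after the levels had been seen, which all 38 members passed. Since sums over many cells have narrow intervals, a large part of all genes had intervals that left out 1. All background shares below are for the full set of gated stromal cells. Counts in blood-poor stroma or under another setting have no background of their own here and are given only as a check on the main counts.

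In naive against control, the genes of the mitotic list were higher as a group. Of its 24 members, 14 were at least 2-fold higher, 22 had intervals above 1 and none had an interval below 1, with a median log2 ratio of 1.17. Of 16067 genes with at least 0.5 CPM, 8.80% were at least 2-fold higher, 3.44% were at least 2-fold lower, 47.2% had intervals above 1 and 18.3% below 1, with a median of 0.17. Of 10821 genes with at least 5 CPM, 4.95% were at least 2-fold higher and 1.82% lower, and 7 of the 14 mitotic members above that limit were higher. Of the 11 S-phase members, 5 had intervals above 1, a share near the background, Pcna had one below 1, none was at least 2-fold different, and the median was 0.12. A scaling by the trimmed mean of M values lowered every log2 ratio by 0.18, which gave a mitotic median of 0.99 and turned the S-phase median to -0.06, with intervals of 4 S-phase members above 1 and 4 below 1 (Pcna, Mcm3, Mcm4 and Mcm7). In blood-poor stroma 18 of 24 mitotic members and none of the S-phase members were at least 2-fold higher. Without the cells of most UMIs, Ube2c and Cdc20 had intervals that took in 1.

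In exhausted against control, 5 of 24 mitotic members were at least 2-fold higher (Ccnb1, Cdk1, Aurkb, Kif20a and Hmmr), 19 had intervals above 1, and the median log2 ratio was 0.73. Of 15785 genes with at least 0.5 CPM, 4.84% were at least 2-fold higher, 3.03% lower, 32.9% had intervals above 1 and 18.4% below 1. Of genes with at least 5 CPM, 2.58% were higher and 1.02% lower, and of 10 mitotic members above that limit Cdk1 alone was higher. Hmmr, at 2.38 times, was at 1.50 times (0.768 to 2.81) with a stricter cell filter and at 4.50 times in blood-poor stroma. Of the 11 S-phase members, Rrm2, Tyms, Mcm6 and Rrm1 had intervals above 1, again near the background share, and Pcna had one below 1. Rrm2 stood at 1.87 times (1.55 to 2.26). The interval of Rrm1 (1.05 to 1.32) reached 1 with the other scaling, with a stricter gate and without the cells of most UMIs, and that of Pcna (0.873 to 0.957) took in 1 with the stricter cell filter. In blood-poor stroma 9 mitotic members were at least 2-fold higher, as with the stricter cell filter.

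The libraries after 1 and 2 ablations were set against each other directly. In exhausted against naive, no member of either list was at least 2-fold different, but 16 of 24 mitotic members had intervals below 1 and none above 1, with a median log2 ratio of -0.58. Of 16011 genes with at least 0.5 CPM, 2.28% were at least 2-fold higher, 4.36% lower, 13.4% had intervals above 1 and 32.6% below 1, with a median of -0.10. Of genes with at least 5 CPM, 1.04% were higher and 1.30% lower. The members with the lowest ratios among the 14 above that limit were Birc5 (0.518), Ccna2 (0.559) and Cenpf (0.587), and those with the highest were Kif11 (1.02), Mki67 (0.953) and Top2a (0.837). Mki67 thus had an interval that took in 1 (0.829 to 1.10), while Cdk1 stood at 0.593 times (0.482 to 0.727). Top2a had an interval that took in 1 under each alternative but the stricter gate, and Cenpf stood at 0.871 times (0.637 to 1.18) with the stricter cell filter. S-phase members had a median of -0.01, with Pcna at 1.24 times (1.17 to 1.31) and Rrm1 at 0.788 times (0.699 to 0.888). In blood-poor stroma 15 mitotic members had intervals below 1 and 2 of them were at least 2-fold lower. Without the cells of most UMIs 10 mitotic members had intervals below 1, and the median was -0.35.

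In the uninjured libraries, aged against control, 20 of 24 mitotic members had intervals below 1, 8 were at least 2-fold lower, none had an interval above 1, and the median log2 ratio was -0.85. Of 15608 genes with at least 0.5 CPM, 1.51% were at least 2-fold higher, 3.96% lower, 17.1% had intervals above 1 and 28.3% below 1. Of genes with at least 5 CPM, 0.702% were higher and 1.19% lower. Of the mitotic members, Ube2c, Top2a and Mki67 were above that limit, with Mki67 at 0.440 times (0.372 to 0.518) and Top2a at 0.455 times (0.386 to 0.534). The S-phase median was -0.16 and 5 of 11 members had intervals below 1, with Mcm2 at 0.621, Mcm5 at 0.654 and Rrm2 at 0.592 times and Rrm1, Mcm4 and Mcm7 at 0.980, 0.973 and 0.972 times. With the stricter cell filter 2 mitotic members were at least 2-fold lower and 14 had intervals below 1, and Birc5 stood at 0.961 times (0.690 to 1.33) in place of 0.681. In blood-poor stroma 17 mitotic members had intervals below 1 and 7 were at least 2-fold lower. Haemoglobin in stromal cells, a measure of erythroid RNA only, stood at 5181 CPM in control and 2171 CPM in aged. The part of blood RNA in the result was not tested beyond the blood-poor set.

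Aged-injury against aged gave the largest mitotic ratios of the 5 comparisons. All 24 mitotic members were at least 2-fold higher, with a median log2 ratio of 3.15. Of 15637 genes with at least 0.5 CPM, 8.83% were at least 2-fold higher, 6.81% lower, 43.3% had intervals above 1 and 32.8% below 1, with a median of 0.06. Of genes with at least 5 CPM, 6.11% were higher and 2.56% lower, and 19 mitotic members were above that limit. The ratios ran from 2.67 for Nusap1 to 21.2 for Bub1 (11.8 to 42.7), and Cdk1, Hmmr and Ccnb1 led the members above the limit, at 20.3, 20.3 and 18.4 times. Of the 11 S-phase members, 10 had intervals above 1 and 5 were at least 2-fold higher (Mcm2, Mcm5, Mcm6, Tyms and Rrm2), with a median of 0.82. In blood-poor stroma all 24 mitotic members and 5 S-phase members were again at least 2-fold higher, and haemoglobin was lower in stromal cells of aged-injury, at 497 against 2171 CPM.

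These ratios depended on the cells with most UMIs. Without the 5% of cells with most UMIs in each library, 20 of 24 mitotic members were at least 2-fold higher in aged-injury than in aged, all 24 had intervals above 1, and the median log2 ratio was 1.95. Cdk1 was then 11.4 times higher (8.0 to 16.9), Hmmr 6.78, Mki67 3.81 and Nusap1 1.39 times. Of the S-phase members only Rrm2 (2.44 times) and Tyms (2.30 times) were at least 2-fold higher, Mcm5, Mcm6 and Mcm2 stood at 1.91, 1.67 and 1.55 times, and Mcm3 and Mcm7 had intervals below 1, at 0.847 and 0.897 times. The S-phase median was 0.37.

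**Figure D2:**
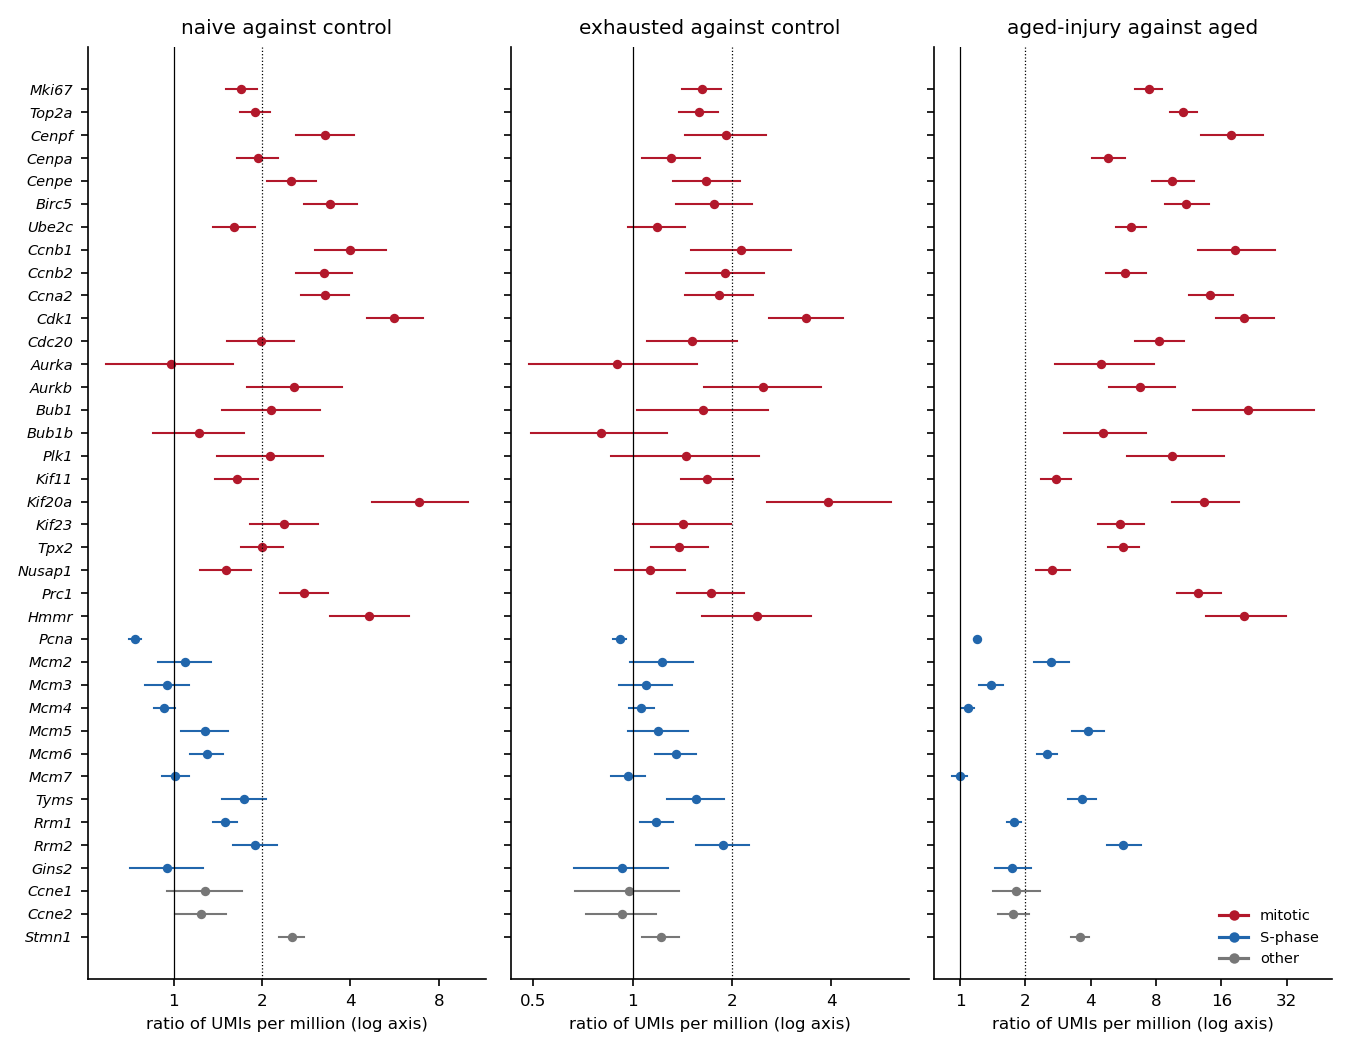
Ratio of each member in gated stromal cells for 3 pairs of libraries, on a log axis whose range differs between panels. Points are ratios, bars are 95% intervals for counting error, the solid line is at 1 and the dotted line at 2. Most mitotic members lie to the right of most S-phase members, and Pcna lies left of 1 in the 2 young pairs.

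Sums over cells do not say how many cells hold the transcripts. Each stromal cell was therefore thinned to 3000 UMIs, which left out 457, 502, 539, 1264 and 1531 shallower cells, and a cell was counted when it had UMIs of at least 2 different mitotic members. The count was 76 of 6683 cells in control (1.14%, exact interval 0.897% to 1.42%), 74 of 3087 in naive (2.40%, 1.89% to 3.0%), 51 of 2313 in exhausted (2.20%, 1.65% to 2.89%), 38 of 5429 in aged (0.70%, 0.496% to 0.959%) and 538 of 15725 in aged-injury (3.42%, 3.14% to 3.72%). The intervals of naive and exhausted overlapped each other and lay above those of control and aged. The intervals of exhausted and control overlapped when cells were thinned to 2000 UMIs (0.974% to 1.90% against 0.623% to 1.06%). They also did when 3 members were asked for (0.495% to 1.28% against 0.254% to 0.570%), while naive stayed above control without overlap in both. Exhausted was still the higher in value, at 1.38% against 0.822% and 0.821% against 0.389%, and overlap is no test of equality. Without thinning the shares were 5.06%, 7.80%, 7.64%, 1.96% and 9.89%, in cells with medians of 8460, 7378, 6895, 6697 and 10021 UMIs.

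In blood-poor stroma the shares were 0.665%, 2.10%, 1.71%, 0.451% and 3.25%, from 39, 60, 35, 23 and 491 cells. Naive and exhausted again stood above control and aged without overlap of intervals, and aged-injury stood above all. Mature neutrophils, a cell type known to have left the cell cycle, were taken as the background for stray RNA. They are no clean zero, since they also held UMIs of 57.1% of the immature neutrophil markers at the median and 1.54 to 2.92 mitotic UMIs per S-phase UMI. They had shares of 7.80%, 4.85%, 7.61% and 7.69% in the first 4 libraries, with medians of 5358 to 7457 UMIs, and aged-injury had too few of them for a value. In those 4 libraries no stromal share stood above that background, and for aged-injury the comparison was not possible, so a share alone is not read as dividing cells in any library. For S-phase members the neutrophil shares were 4.13%, 2.20%, 4.74% and 3.08%. There were 0.993, 0.889, 1.01, 0.961 and 0.666 Mki67 UMIs per Top2a UMI in stroma. Mature neutrophils held 0.659 to 1.11 and immature neutrophils 1.02 to 1.16, monocytes 0.730 to 0.877, B lineage cells 0.595 to 0.769, and erythroid cells 2.60 to 3.25. The stromal ratio was below that of erythroid cells in each library, and within the range that the other blood classes spanned over the libraries. The part of stray RNA in the stromal shares was not tested.

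**Figure D3:**
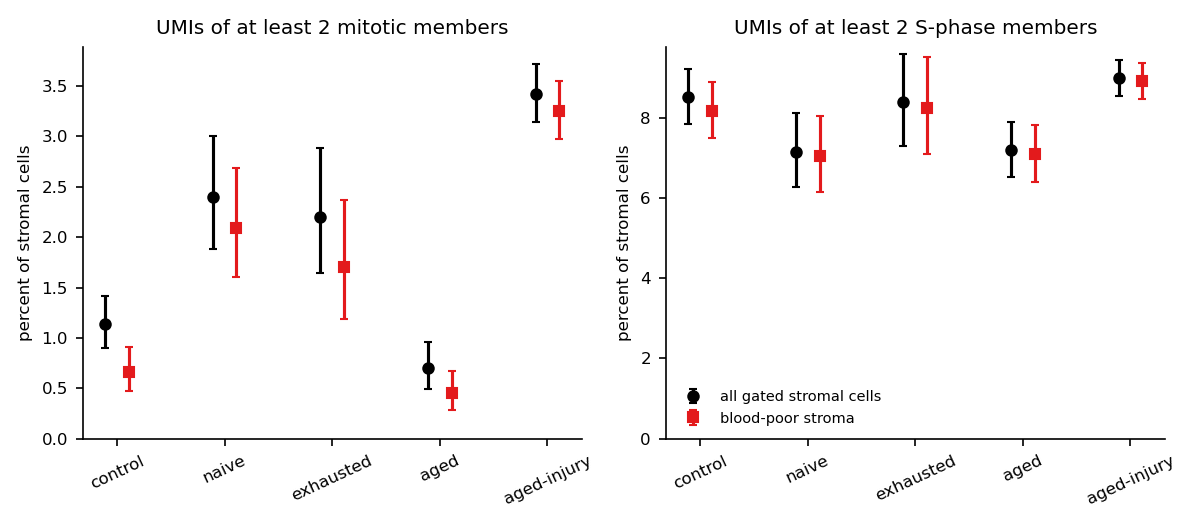
Percent of stromal cells, thinned to 3000 UMIs, with UMIs of at least 2 mitotic members (left) or at least 2 S-phase members (right), by library. Circles are all gated stromal cells, squares are blood-poor stroma, and bars are exact 95% intervals for counting error. The mitotic share runs from 0.70% in aged to 3.42% in aged-injury, and the S-phase share only from 7.16% to 8.99%.

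The same count for S-phase members gave 8.51%, 7.16%, 8.39%, 7.18% and 8.99% of stromal cells. These shares lay close together, and their order was not that of the mitotic shares, with naive lowest. S-phase and mitotic UMIs met in the same cells. Among cells with mitotic UMIs, 25%, 37.8%, 29.4%, 23.7% and 44.4% also had UMIs of at least 2 S-phase members, against 8.33%, 6.41%, 7.91%, 7.07% and 7.74% of the other stromal cells. The 2 intervals lay apart in each library. In blood-poor stroma the shares among cells with mitotic UMIs were 17.9%, 36.7%, 28.6%, 21.7% and 46.0%, and there the intervals of control and aged overlapped those of the other cells. Cells with both kinds of UMIs were 0.284%, 0.907%, 0.649%, 0.166% and 1.52% of all gated stromal cells, cells with mitotic UMIs alone 0.853%, 1.49%, 1.56%, 0.534% and 1.90%, and cells with S-phase UMIs alone 8.23%, 6.25%, 7.74%, 7.02% and 7.47%. The first 2 kinds ranked aged lowest and aged-injury highest, and the third ranked naive lowest and control highest.

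How the mitotic UMIs were spread over cells differed between libraries. In blood-poor stroma, the cells counted above held 19.4%, 63.1%, 42.7%, 9.45% and 86.8% of all mitotic UMIs, a description because these UMIs picked the cells. In aged-injury, then, 3.25% of cells held most of the mitotic UMIs, while in aged and control most such UMIs lay in the other cells. Genes that did not pick the cells were read beside them. They act in the same process as the genes that did, so higher levels in the picked cells could be foreseen and are a description too. The 56 other mitotic genes summed to 1969, 4028, 2713, 735 and 5168 CPM in the picked cells, which is 4.22, 8.69, 5.24, 1.75 and 10.4 times the level in the remaining cells. The S-phase members were 2.85, 3.99, 3.94, 1.86 and 6.06 times higher there. Cells picked in aged thus differed least from their neighbours, with intervals of 1.44 to 2.11 for other mitotic genes and 1.39 to 2.44 for S-phase members that left out 1.

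Single genes in these picked blood-poor cells ran the same way. Rrm2 was 14.5 to 48.8 times higher in the picked cells than in the rest in 5 of 5 libraries. Mcm5 was 6.77 to 19.7 times higher in 4 libraries and had no UMI in the 23 picked cells of aged. Pcna was 1.80 to 2.97 times higher and Mcm7 2.13 to 4.13 times higher, smaller ratios than those of Rrm2, and the Mcm7 ratio of aged, 2.13, rests on 5 UMIs with an interval that took in 1. Stmn1, which took no part in the choice, was 3.63 to 21.0 times higher.

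Marker genes of the picked cells are given as values beside these results. In all stromal cells of control, the picked cells held 13.3 times the erythroid and 12.2 times the B lineage marker UMIs of the other stromal cells, and in aged 40.7 and 31.4 times. The values of naive, exhausted and aged-injury are not given here, so these ratios are not read as particular to the uninjured libraries. In blood-poor stroma, where those lists were limited by choice, the macrophage list, which was not limited, was 3.29 (1.20 to 7.23), 1.20 (0.543 to 2.31), 0.702 (0.190 to 1.81), 6.26 (1.28 to 18.7) and 1.18 (0.812 to 1.65) times higher. The part of blood cells joined to stromal cells in these counts was not tested. Reticular markers were lower in the picked cells of each library, at 0.792, 0.511, 0.667, 0.801 and 0.257 times, and Lepr itself stood at 0.831, 0.427, 0.655, 0.662 and 0.189 times. Genes of repair stroma (Hmga2, Cd248, Acta2, Tagln, Postn and Cthrc1) summed to 1.32, 3.19, 2.77, 1.23 and 3.57 times the level of other cells, with the intervals of control and aged taking in 1. Picked cells in aged-injury had a median of 22806 UMIs against 10437 in the others, while the medians were 6618 against 8600 in control, 8662 against 8308 in naive, 7876 against 7993 in exhausted and 5379 against 7834 in aged.

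**Figure D4:**
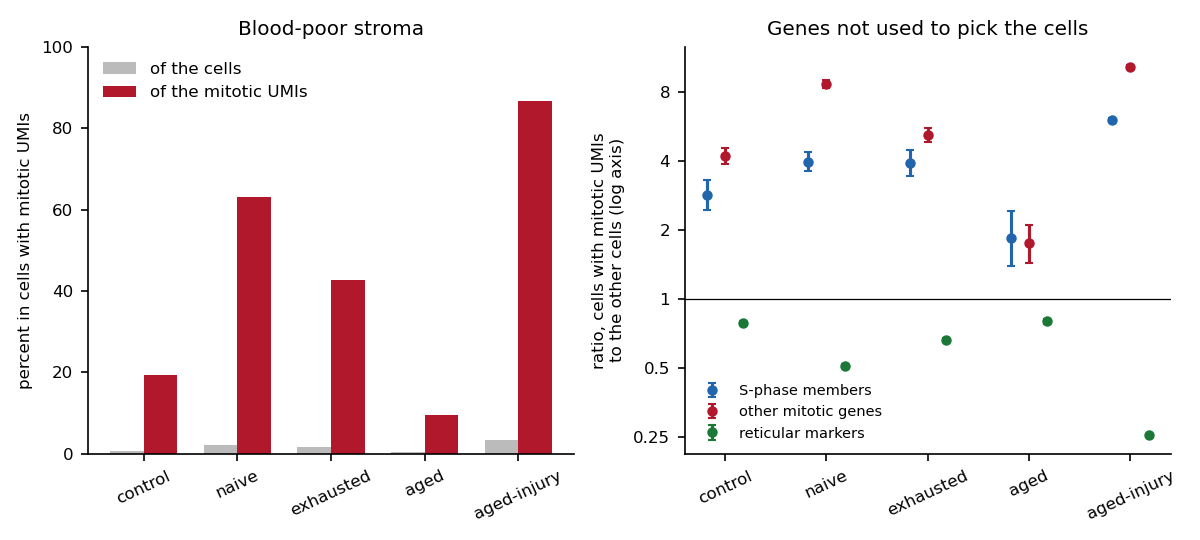
Left, share of cells with UMIs of at least 2 mitotic members and share of all mitotic UMIs that these cells hold, in percent, in blood-poor stroma of each library. Right, ratio on a log axis of summed CPM in those cells to the other cells, for gene lists that did not pick them, with 95% intervals for counting error. The cells hold 86.8% of mitotic UMIs in aged-injury and 9.45% in aged, and other mitotic genes are highest in them in aged-injury.

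Stromal classes differed in their division genes. In reticular cells the mitotic sum was 60.1, 141, 109, 38.3 and 315 CPM, with naive 2.35 times control (2.24 to 2.47). The osteoblast lineage, which makes bone, held 138, 122, 84.9, 51.6 and 265 CPM. The naive sum was therefore not above that of control there, with a ratio of 0.885 (0.808 to 0.970), and exhausted stood at 0.617 times control (0.542 to 0.701), against 1.81 times in reticular cells. Aged-injury exceeded aged in both, by 8.23 times in reticular and 5.14 times in osteoblast lineage cells. Top2a in the osteoblast lineage stood at 29.2, 13.4, 18.2, 8.77 and 42.8 CPM. The share of osteoblast lineage cells with UMIs of at least 2 mitotic members was 1.63% in control (9 of 551, 0.75% to 3.08%). It was 2.77% in naive (16 of 577, 1.59% to 4.46%) and 2.05% in exhausted (6 of 293, 0.755% to 4.40%). Aged had 1.11% (4 of 359, 0.304% to 2.83%) and aged-injury 2.77% (78 of 2819, 2.19% to 3.44%). These intervals overlapped, which is no test of equality, so a difference in shares was neither shown nor excluded. The sums thus rest on few cells, and the difference between the classes was not tested.

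Pericytes and smooth muscle cells, which wrap vessels, were few in the uninjured libraries. None of 21 control cells and none of 31 aged cells had UMIs of at least 2 mitotic members, where 3 cells, the limit used for a count of 0, would be 14.3% and 9.68%. The shares were 9.30% in naive (8 of 86, 4.10% to 17.5%), 12.9% in exhausted (4 of 31, 3.63% to 29.8%) and 12.8% in aged-injury (37 of 289, 9.18% to 17.2%). Mki67 stood at 0, 88.6, 92.5, 0 and 126 CPM and Cdk1 at 0, 31.3, 18.5, 0 and 73.1 CPM in this class. The intervals of control (0% to 16.1%) and aged (0% to 11.2%) overlapped those of the 3 injured libraries. Overlap of intervals is no test of equality, so from these cell numbers a difference in shares was neither shown nor excluded. The summed mitotic members of this class did differ beyond counting error. Control held 60.15 CPM (30.02 to 107.6), against 718 (666 to 774) in naive and 681 (586 to 787) in exhausted. Aged held 46.37 CPM (23.15 to 82.97), against 1370 (1334 to 1408) in aged-injury. The control and aged sums rest on 11 UMIs each. Without thinning the shares were 4.0%, 15.2%, 12.8%, 9.68% and 23.0%. Pcna in pericytes stood at 120, 85.5, 189, 219 and 171 CPM, again without the order of the mitotic genes.

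Endothelial cells, which were also in the sort, had shares of 2.86%, 3.33%, 5.56%, 0% and 9.29%, the zero coming from 25 cells, with an exact interval up to 13.7% and a limit of 12% at 3 cells. They differed from stroma in having high S-phase counts in every library, with 31.4%, 21.4%, 22.9%, 28.0% and 25.1% of cells holding UMIs of at least 2 S-phase members. Their Pcna level was 131 to 383 CPM.

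Blood cells in the same libraries give a scale for these values. Erythroid cells held 13794 to 16673 CPM of mitotic members, and 92.6% to 95.1% of them had UMIs of at least 2. Precursors of granulocytes and monocytes held 3022 to 3971 CPM, immature neutrophils 2872 to 5760 CPM, and mature neutrophils 314 to 710 CPM. The level was lower in mature than in immature neutrophils in each of the 4 libraries with both. The stromal sum of aged-injury, 319 CPM, was close to the lowest value of mature neutrophils. Precursors of granulocytes and monocytes held 1.05 to 1.69 mitotic UMIs per S-phase UMI, against 1.92 to 3.93 in immature neutrophils.

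**Figure D5:**
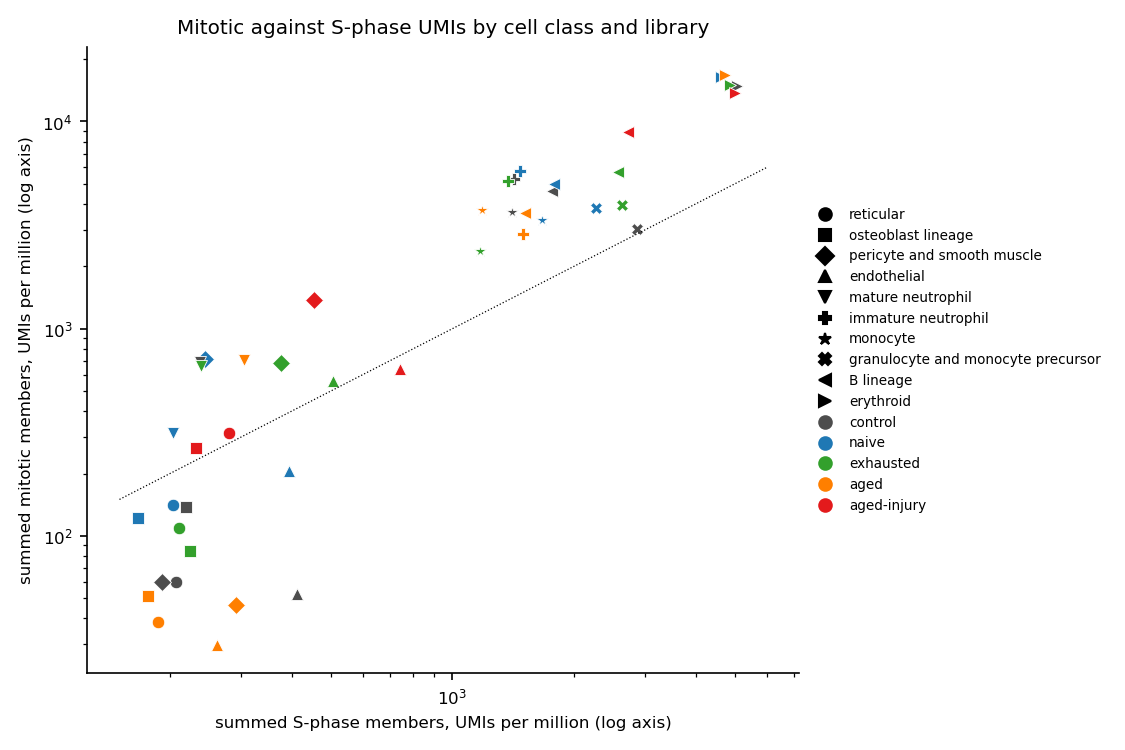
Summed mitotic against summed S-phase members for each cell class (symbol) and library (colour), in CPM on log axes, with a dotted line where both are equal. Classes with fewer than 20 cells in a library are left out, and the UMIs are not thinned. Erythroid, B lineage and immature neutrophil cells lie above the line. Mature neutrophils also lie above it in each library shown, at 690 against 237 in control. Reticular cells of control and aged lie far below it, and reticular cells of aged-injury reach it at 315 against 279. The lists hold different genes, so the line is no limit between dividing and other cells.

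Other genes of the cycle, on lists also chosen with earlier results known, were counted in the same way and are read against the shares of all genes given above for each comparison. Of 56 other mitotic genes, 41 had intervals above 1 and 2 below 1 in naive against control, and 55 and 1 in aged-injury against aged, with median log2 ratios of 0.75 and 2.35. The highest above the level limit were Anln, a scaffold of the cleavage furrow, at 3.32 times, and Incenp, of the passenger complex, at 2.11 times, in naive against control. Spc25 and Cdca3 led aged-injury against aged at 14.7 and 13.5 times. Of 35 other S-phase genes, 12 had intervals above 1 and 4 below 1 in naive against control, and 31 and 1 in aged-injury against aged, with medians of 0.17 and 0.77. The first of these counts lies below the share of all genes with intervals above 1 in naive against control. Hells and Cdt1 led the former at 1.74 and 1.51 times, and Uhrf1 and E2f1 the latter at 4.55 and 2.99 times. In exhausted against control 25 of 56 and 11 of 35 had intervals above 1, with Incenp and Ncaph, Hells and Fen1 the highest. In exhausted against naive 17 of 56 and 5 of 35 had intervals below 1, and in aged against control 28 of 56 and 7 of 35 did. Of all genes, 32.6% had intervals below 1 in the former and 28.3% in the latter. Of these counts only 28 of 56 lay above the share of all genes. In exhausted against naive the 56 other mitotic genes had a median log2 ratio of -0.28 and a summed ratio of 0.995 (0.974 to 1.017). The wider mitotic list was thus not lower as a sum there.

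Genes that open the cycle in G1 gave mixed counts. Ccnd1, the cyclin D that growth signals induce, stood at 22.8, 24.1, 19.2, 11.8 and 98.8 CPM, so that naive differed from control by 1.06 times (0.971 to 1.16) and aged-injury from aged by 8.36 times (7.70 to 9.09). E2f3, an E2F activator, was highest in naive with 26.6 CPM against 12.9 CPM in control. Of the 9 G1 entry genes, 5 had intervals above 1 and 1 below 1 in naive against control, 1 and 4 in exhausted against control, 1 and 7 in exhausted against naive, 2 and 6 in aged against control, and 6 and 2 in aged-injury against aged. In exhausted against naive and in aged against control most of them were thus lower, as most mitotic members were. Of 10 cycle inhibitors, 5 had intervals above 1 and 4 below 1 in naive against control, and 6 and 4 in aged-injury against aged. The counts were 5 and 2 in exhausted against control, 3 and 5 in exhausted against naive, and 1 and 3 in aged against control. As a sum they stood at 0.924, 0.769, 0.832, 1.10 and 0.762 times in naive against control, exhausted against control, exhausted against naive, aged against control and aged-injury against aged. Among them, Cdkn2a stood at 1.25, 6.64, 2.19, 0.580 and 11.5 CPM, and Cdkn1a at 356, 325, 224, 470 and 273 CPM. Aged-injury and naive were thus the high libraries for Cdkn2a, which encodes inhibitors of the passage from G1 to S, and aged was the high library for Cdkn1a, which blocks cyclin-dependent kinases.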

How the data were processed

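The deposited values were raw UMI counts per gene and cell, made by the authors on the BD Rhapsody platform, per the labels. The submitters' processing notes name Seurat 5.1 and GRCm39, and for the counting tool and its settings the sources used here give no name. The 38 members, the other lists and the comparisons were chosen with earlier results of these data known. Kept cells had at least 500 genes, 1000 UMIs and a mitochondrial share under 25%. Markers were listed first and the gate was set after the cells had been seen: 40% of the markers of a side with a lead of 20 points, and 60% for a stromal subclass. Doublets were treated only by leaving out cells with markers of more than 1 side. Counts were summed over the cells of a class and library and divided by the summed UMIs (23761547 to 206757234 in stroma). Levels have exact Poisson intervals, ratios exact conditional binomial intervals and shares exact Clopper-Pearson intervals, all at 95%, for counting error alone. Groups of a single library allow no test of one group against another. Genes named in a comparison were the 3 highest and 3 lowest members of the mitotic and of the S-phase list with at least 5 CPM in either library and 50 UMIs in the pair, a fixed set of members (Mki67, Top2a, Cdk1, Ccnb1, Pcna, Mcm2, Mcm5, Tyms, Rrm2, Ccne1, Ccne2 and Stmn1), and the 2 highest of other lists. Members described by role and others set beside them were named after their values had been seen. Cells were thinned to 3000 UMIs with seed 1. The ratio and share code was tested on simulated data. Alternatives were scaling by edgeR's trimmed mean of M values, a stricter cell filter, a stricter gate, leaving out the cells of most UMIs, no level limit, other thinning depths and other minimum numbers of members, and, added after the data had been seen, blood-poor stroma and a background over genes with at least 0.5 CPM. Tools were Python 3.11.15, NumPy 2.4.6, SciPy 1.17.1, pandas 2.3.3, Matplotlib 3.10.9, R 4.3.3 and edgeR 4.0.16, the last for scaling factors only. Promoter windows came from RefSeq on GRCm38.p6, and no coordinate was moved between builds.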

Additional observations from a re-analysis of the deposited data

Results flagged for a closer look

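Pcna in stromal cells differed in opposite directions after injury. Its ratio was 0.7385 in naive against control (0.707 to 0.772, 84.4 against 114 CPM) and 1.2 in aged-injury against aged (1.16 to 1.24, 123 against 102 CPM). In blood-poor stroma the levels were 80.2 against 115 CPM and 123 against 101 CPM. Each group is 1 library, so the difference between the 2 effects was not tested, and age and time after ablation cannot be told apart.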

How the results depend on the processing

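Each group is 1 library, so leaving out a replicate was impossible, and the intervals do not cover the spread between mice, the choice of cells or errors of the gate. Haemoglobin was higher in stromal cells of the first 4 libraries than in those of aged-injury, and the part of blood RNA was not tested. Depth limits the scarce mitotic kinases. No paired analysis was possible because each group holds 1 library and the labels give no replicate numbers.

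The median log2 ratios that follow are over the members that passed the limit of 5 CPM, unlike those in the report, which are over all members. Scarce members pass that limit only through their higher library, so the medians over all members are those to read. The mitotic medians kept their direction under every alternative run, and so did the S-phase medians except in exhausted against naive, which lay near 0. For the mitotic list, naive against control was 1.17 in the main analysis, 0.99 with scaling by the trimmed mean of M values, 1.27 with the stricter cell filter, 1.56 with the stricter gate, 0.93 without the cells of most UMIs and 1.58 in blood-poor stroma. Exhausted against control was 0.72 in the main analysis, 0.65 with that scaling, 0.62 without the cells of most UMIs and 0.91 in blood-poor stroma. Exhausted against naive was -0.58 in the main analysis, -0.47 with the scaling, -0.68 with the stricter gate, -0.38 without the cells of most UMIs and -0.66 in blood-poor stroma. Aged against control was -1.14 in the main analysis (3 members), -0.82 with the stricter cell filter (2 members), -1.27 without the cells of most UMIs (3 members) and -0.85 with no level limit. Over all 24 members it was -0.59 with the stricter cell filter, -0.70 with the stricter gate and -0.65 in blood-poor stroma. Aged-injury against aged was 3.25 in the main analysis, 3.07 with the stricter cell filter, 2.02 without the cells of most UMIs, 3.15 with no level limit and 3.54 in blood-poor stroma.

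For the S-phase list, naive against control was 0.35 in the main analysis, 0.17 with the scaling, 0.16 with the stricter gate, 0.11 without the cells of most UMIs, 0.12 with no level limit and 0.13 in blood-poor stroma. Exhausted against control was 0.25 in the main analysis, 0.18 with the scaling, 0.14 with the stricter gate and without the cells of most UMIs, and 0.19 in blood-poor stroma. Exhausted against naive was 0.02 in the main analysis, 0.13 with the scaling, -0.02 with the stricter cell filter and -0.01 with no level limit. Over all 11 members the S-phase median of naive against control also turned, from 0.12 to -0.06 with the scaling and -0.02 without the cells of most UMIs. Aged against control was -0.10 in the main analysis, -0.03 with the stricter cell filter, -0.16 with no level limit and -0.06 in blood-poor stroma. Aged-injury against aged was 1.08 in the main analysis, 1.00 with the stricter cell filter, 0.37 without the cells of most UMIs, 0.82 with no level limit and 1.11 in blood-poor stroma.

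Of 190 member ratios, 139 had intervals that left out 1. Of these, 8 lost that or reversed with the scaling, 7 in blood-poor stroma, 15 with the stricter cell filter, 9 with the stricter gate and 18 without the cells of most UMIs. Reversals came without the cells of most UMIs for Mcm5 in naive against control (0.962), Ube2c in exhausted against naive (1.104), and Mcm3 (0.8471) and Mcm4 (0.9621) in aged-injury against aged, and with the stricter cell filter for Ube2c in exhausted against naive (1.028). The cause was not tested.

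The share of stromal cells with mitotic UMIs depends on depth and on the number of members asked for. Thinned to 2000 UMIs it was 0.822% for control, 1.98% for naive, 1.38% for exhausted, 0.462% for aged and 2.73% for aged-injury, and thinned to 5000 UMIs 2.29%, 4.31%, 3.86%, 1.02% and 4.83% in the 5 libraries. With at least 1 member it was 11.8%, 14.1%, 14.7%, 8.73% and 13.6%, where exhausted and naive stood above aged-injury, and with at least 3 members 0.389%, 1.33%, 0.821%, 0.203% and 2.26%. The stricter cell filter gave 0.795% in control and 0.467% in aged, blood-poor stroma 0.665% and 0.451%, and the stricter gate 3.13% in aged-injury.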
